A study of Mus musculus with 11 samples.

Results

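The effect of removing interleukin 6 (IL-6) from Mdr2 knockout liver was read from 8 of the 11 arrays of the series: the 4 with the genotype label Mdr2-knockout/IL-6-knockout, called Mdr2-KO/IL6-KO or double knockout here, against the 4 labelled as Mdr2-knockout alone, called Mdr2-KO. The other 3 arrays were of wild-type C57BL/6 liver and entered the linear model for its estimate of spread. All animals were male and 14 months old, and the knockout tissue was labelled as free of tumour. Every one of the 8 knockout arrays lacks Mdr2, so the comparison shows what IL-6 loss adds in its absence and says nothing of IL-6 loss alone. Only the wild-type labels carry a strain; the series title names male C57BL/6. The labels used here state no targeted allele, litter, batch or pairing, and do not say whether each array stands for a separate mouse, so p-values reflect only how these samples vary. Values are log2 levels from RMA, a method that corrects, normalizes and summarizes the probes of each probe set, so a difference of 1 is a 2-fold difference. Each of 19938 genes was represented by its brightest probe set with a single gene symbol, and calls were made at adjusted p under 0.05 (limma, Benjamini-Hochberg over all genes).

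Mdr2 is the protein of Abcb4, a canalicular pump that moves phosphatidylcholine into bile; without it bile salts injure the bile ducts, and mice develop chronic cholangitis, fibrosis and later liver tumours. IL-6 binds its receptor IL-6R and the shared subunit gp130 on hepatocytes, where JAK kinases activate STAT3, which switches on SOCS3 as feedback and the genes of secreted acute-phase proteins. These proteins include serum amyloids, fibrinogen, protease inhibitors and metal-binding proteins, and STAT3 acts on them together with hepatocyte factors such as HNF1 and C/EBP.

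The promoters of 6 acute-phase and IL-6 pathway genes are shown as the 250 bases before the gene's start, from RefSeq (GRCm38.p6), to show where STAT-type letters lie in genes that were lower without IL-6 and where none lie. The motifs searched on both strands were TTCNNNGAA for STAT, its stricter form TTCCNGGAA, which it contains, CTGGGAA as the IL-6 response core, GTTAAT for HNF1 and TTGCGCAA for C/EBP. Capitals mark every match. Fgl1 was not matched in the promoter table.
Itih4 (chr14:30886226-30886475, plus strand): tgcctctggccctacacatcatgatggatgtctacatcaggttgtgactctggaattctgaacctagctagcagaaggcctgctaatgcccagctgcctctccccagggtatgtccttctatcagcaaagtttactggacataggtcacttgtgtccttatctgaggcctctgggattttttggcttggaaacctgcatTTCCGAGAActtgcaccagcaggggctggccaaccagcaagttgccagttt
Fgb (chr3:83049864-83050113, minus strand): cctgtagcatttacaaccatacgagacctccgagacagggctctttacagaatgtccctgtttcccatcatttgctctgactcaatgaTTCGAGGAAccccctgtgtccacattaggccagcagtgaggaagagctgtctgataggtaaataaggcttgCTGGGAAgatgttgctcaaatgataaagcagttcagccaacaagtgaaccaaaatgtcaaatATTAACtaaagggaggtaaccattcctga
Fga (chr3:83025903-83026152, plus strand): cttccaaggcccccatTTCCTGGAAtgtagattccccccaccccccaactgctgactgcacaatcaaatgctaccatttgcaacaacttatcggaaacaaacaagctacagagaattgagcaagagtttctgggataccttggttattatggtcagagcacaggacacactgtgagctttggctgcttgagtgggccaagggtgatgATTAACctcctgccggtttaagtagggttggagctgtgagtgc
Steap4 (chr5:7960222-7960471, plus strand): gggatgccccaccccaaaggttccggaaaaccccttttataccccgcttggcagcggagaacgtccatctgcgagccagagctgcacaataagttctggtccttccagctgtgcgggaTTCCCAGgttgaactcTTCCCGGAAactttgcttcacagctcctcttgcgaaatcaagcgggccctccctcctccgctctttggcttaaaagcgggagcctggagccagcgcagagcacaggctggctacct
Saa1 (chr7:46742981-46743230, minus strand): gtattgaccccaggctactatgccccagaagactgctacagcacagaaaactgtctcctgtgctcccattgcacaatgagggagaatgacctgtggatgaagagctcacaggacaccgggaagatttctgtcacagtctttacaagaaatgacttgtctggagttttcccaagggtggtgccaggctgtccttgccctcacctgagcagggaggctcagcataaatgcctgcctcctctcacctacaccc
Stat3 (chr11:100939541-100939790, minus strand): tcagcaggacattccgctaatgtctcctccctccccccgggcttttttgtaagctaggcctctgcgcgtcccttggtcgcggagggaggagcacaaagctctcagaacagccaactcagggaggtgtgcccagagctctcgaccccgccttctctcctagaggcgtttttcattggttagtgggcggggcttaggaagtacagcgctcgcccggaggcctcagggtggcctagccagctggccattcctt
The STAT motif lay 51 bases before the start in Itih4, 162 in Fgb, 234 in Fga and 116 in Steap4, the last 2 in the strict form. Fgb and Steap4 also held the IL-6 response core, at 91 and 132 bases, and Fgb and Fga held the HNF1 motif, at 29 and 43 bases. No motif matched in Saa1 or Stat3. Lcn2, Serpina3n and Itih3, also lower in the double knockout and not shown here, held no match to any of the motifs. Orm2, Itih1, Fgg and Lrg1, lower too and not shown, held other motifs but no STAT motif. Of the 55 measured genes of the positive acute-phase lists described below, 44 had a promoter in the table. TTCNNNGAA was held by 8 of these (18.2%), against 7.71% of the 15614 tested genes with a promoter. The strict form was in 2 (4.55%, against 1.17%), CTGGGAA in 7 (15.9%, against 10.8%), GTTAAT in 8 (18.2%, against 6.6%) and TTGCGCAA in 1, Orm2 (2.27%, against 0.224%). These are matches of letters, not sites of binding.

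The targeted genes were read first. Abcb4 stood at 7.63, 7.81, 7.54 and 7.98 in Mdr2-KO and at 7.83, 8.14, 8.32 and 8.08 in the double knockout, with wild type at 9.80, 9.95 and 9.74. All 8 knockout arrays lay below all wild-type arrays. The knockout groups overlapped each other, with a mean higher in the double knockout by 0.35 (SE 0.12, limma adjusted p = 0.9995). The Il6 probe set read 1.62 to 2.09 on all 11 arrays, wild type included, at percentile 1.515 of all genes by mean level. It was as dim in wild type as in the double knockout and therefore checks nothing about the IL-6 label. The tissue label was borne by hepatocyte markers: Alb lay between 13.25 and 13.38 and Ttr between 12.68 and 12.96 on all arrays. Arrays of the knockout groups correlated at r = 0.976 to 0.990 over probe sets. Mdr2-KO replicates 2 and 3 stood at the ends of the leading principal component of the knockout arrays, which held 32.0% of the variance, at 28.2 and -22.8, while the double knockout arrays lay between -10.7 and 5.9. Limma gave these 2 arrays the lowest weights, 0.42 and 0.57.

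Adding IL-6 loss to Mdr2 loss changed 1 gene past the adjusted threshold: Fgl1 fell 3.84-fold. This was 0.00502% of the genes tested. The lowest p-values short of the threshold belonged to Gbp11 (an interferon-induced GTPase), Itih4 (an acute-phase protein), Fam126a and Cyp2c54 (a cytochrome), all with lower levels in the double knockout. Unadjusted p was under 0.05 for 961 genes (4.82%), 555 higher (2.78%) and 406 lower (2.04%). All arrays of one knockout group lay beyond all of the other for 500 genes (2.51%), 319 higher (1.6%) and 181 lower (0.908%). These splits turned when each array was centred on its median, to 418 higher and 477 lower at the unadjusted p, and to 225 higher and 249 lower without overlap. Among genes with no overlap and a difference over 1.5-fold, 14 were lower (0.0702%) and 5 were higher (0.0251%).

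**Figure D1:**
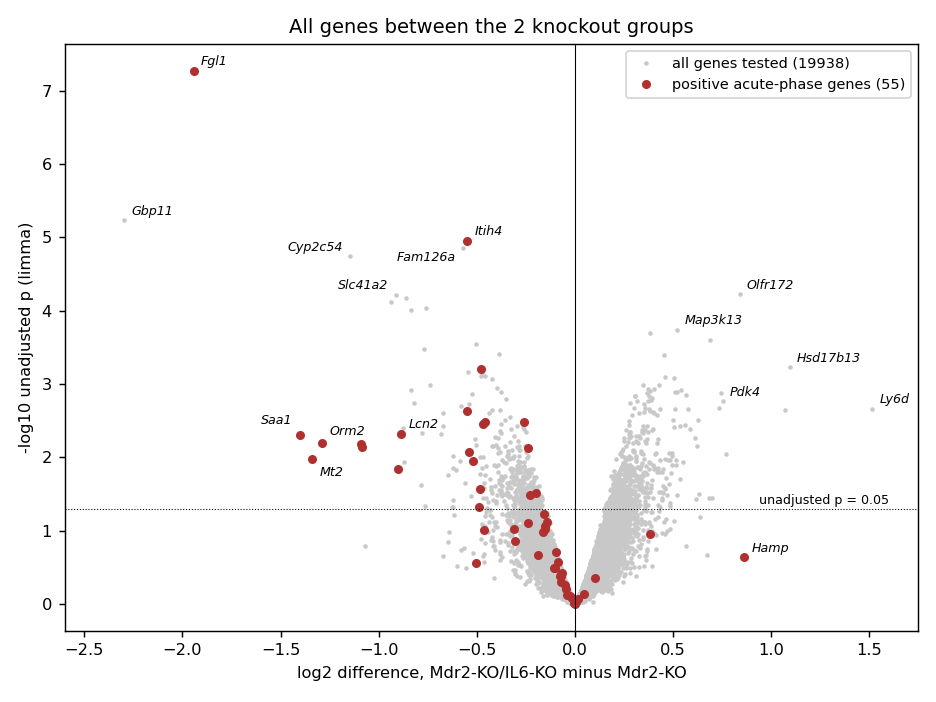
Each of the 19938 genes is plotted by its log2 difference between the double knockout and Mdr2-KO (horizontal) and by -log10 of the unadjusted limma p (vertical). The 55 genes of the positive acute-phase lists are in red. Fgl1 stands alone at the top, and 49 of the 55 acute-phase genes lie left of 0.

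Fgl1 encodes fibrinogen-like protein 1, a protein that hepatocytes secrete and that binds the lymphocyte receptor LAG-3. Its level was 10.41, 10.46, 10.93 and 11.24 in Mdr2-KO and 8.80, 8.69, 8.97 and 8.80 in the double knockout, with wild type at 11.97, 11.76 and 12.41. The 3 groups did not overlap, and the gap between the knockout groups was wider than the range within either. The log2 difference between the knockout groups was -1.94 (SE 0.18, n = 4 and 4, limma adjusted p = 0.00107). Against the same wild-type arrays, Fgl1 was 2.44-fold lower in Mdr2-KO (adjusted p = 0.0053, limma) and 9.37-fold lower in the double knockout (adjusted p = 1.68e-06, limma). The call between the knockout groups was lost only without variance moderation (adjusted p = 0.207 in limma's unmoderated model), of 21 alternatives run. As tissue was profiled in bulk, fewer cells of a type and less RNA per cell cannot be told apart here or for any gene that follows. The 5 genes most like Fgl1 by Pearson r over the 11 arrays were Itih4 (0.98), Slc3a1 (0.98), Fgb (0.97), C4b (0.97) and Itih3 (0.96). These arrays share their genotypes, so r over the 11 includes the steps between groups. Within the 4 Mdr2-KO arrays alone r was lower for Itih4 (0.68), Fgb (0.62) and C4b (0.41). For Slc3a1 and Itih3 it was 0.97 and 0.98 there.

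The acute-phase genes were taken as 6 lists, called positive acute-phase lists here, with 55 of 65 genes measured. The lists are broad. They also hold clotting factors, transferrin (Trf), Serpinc1, Itih2 and Ambp, and not every member is known to rise in an acute phase. None but Fgl1 passed the adjusted threshold. Of the 55, 49 were lower in the double knockout by their point estimate, against 46.1% of all genes, and their median log2 difference was -0.16, against 0.0099 over all genes. At an unadjusted p under 0.05, 21 were lower (38.2%) and 0 higher, against 2.04% and 2.78% of all genes. In 12 (21.8%) every double knockout array lay below every Mdr2-KO array, and in 0 above, against 0.908% and 1.6% of all genes. Without Mdr2-KO replicate 2 the count of listed genes below was 24. Leaving out an array can raise such a count but never lower it, for any set of genes, so the counts are not compared. The 12 were Fgl1, the fibrinogen chains Fga, Fgb and Fgg, the inter-alpha-trypsin inhibitors Itih1, Itih3 and Itih4, Orm2, Serpina3n, Lcn2, Steap4 and Lrg1. Of these, 11 had a promoter in the table and 4 held TTCNNNGAA, beside 4 of the other 33 acute-phase genes. The counts for the 11 and the 33 were 2 and 0 for TTCCNGGAA and 4 and 3 for CTGGGAA. They were 3 and 5 for GTTAAT and 1 and 0 for TTGCGCAA. The 12 genes were picked by these same differences, and a link between motif and difference was not tested.

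Averaged over the 55 genes and set against the Mdr2-KO mean, the Mdr2-KO arrays stood at -0.12, -0.20, 0.26 and 0.07 and the double knockout arrays at -0.31, -0.37, -0.34 and -0.27, with wild type at 0.37, 0.03 and 0.37. The double knockout arrays were the lowest 4 of the 11 and lay close together, while the Mdr2-KO arrays were spread, with replicate 3 highest. The SD was larger in Mdr2-KO than in the double knockout for 43 of the 55 genes (78.2%), against 61.4% of all genes, with median SDs of 0.19 and 0.10. The comparisons with wild type share those 3 arrays: for the same 55 genes the median was -0.16 in Mdr2-KO against wild type, with 5 called lower and 1 higher (0.316% and 0.948% of all genes), and -0.31 in the double knockout against wild type, with 20 called lower and 1 higher (1.28% and 2.91% of all genes). Itih5 was the gene called higher in both.

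**Figure D2:**
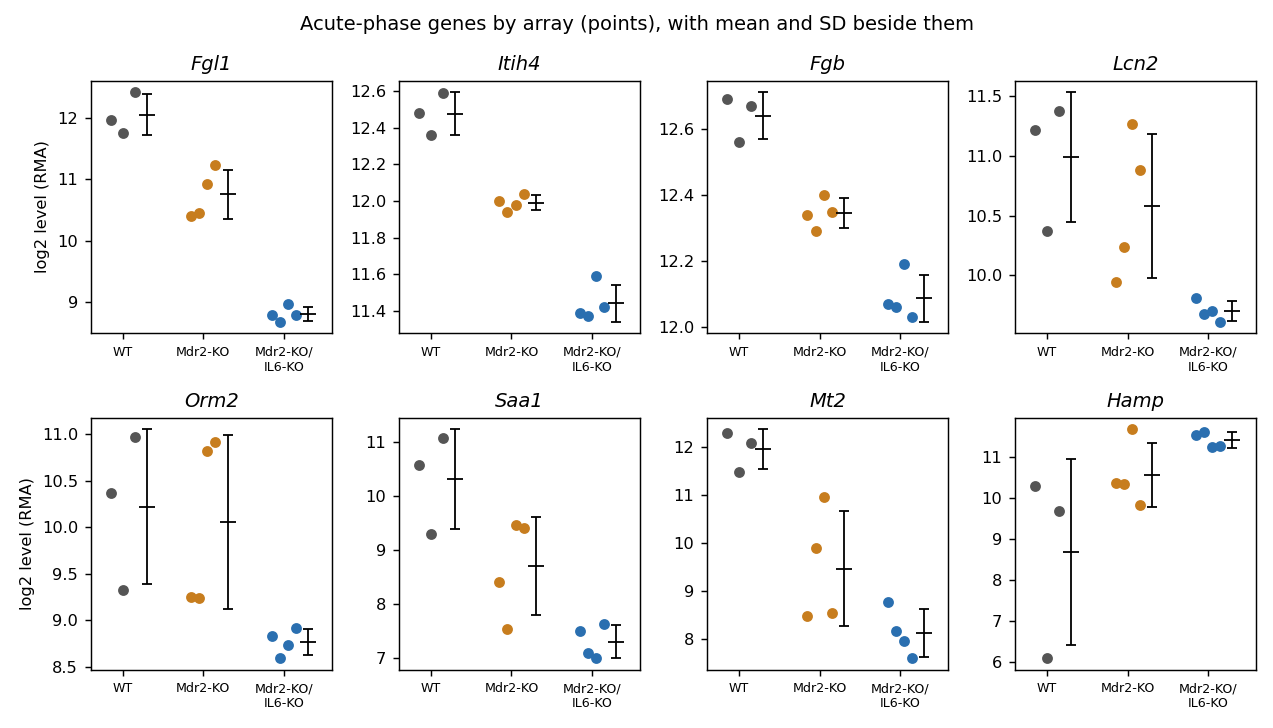
The RMA log2 levels of 8 acute-phase genes are plotted for each array as points in the 3 groups, with mean and SD (n = 3, 4 and 4) as bars beside them. Fgl1, Itih4, Fgb, Lcn2 and Orm2 show no overlap between the knockout groups; Saa1, Mt2 and Hamp overlap, and Hamp is the only one of the 8 with a higher mean in the double knockout.

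The inter-alpha-trypsin inhibitor heavy chains bind hyaluronan and stabilize matrix, and Itih4 is itself an acute-phase protein. Itih4 read 12.00, 11.94, 11.98 and 12.04 in Mdr2-KO and 11.39, 11.37, 11.59 and 11.42 in the double knockout. Its Mdr2-KO arrays lay within 0.1 of one another, well clear of the double knockout, and the wild-type arrays were higher still at 12.48, 12.36 and 12.59. The difference was -0.55 (SE 0.080, limma adjusted p = 0.0706). Itih3 read 11.25, 11.24, 11.62 and 11.69 in Mdr2-KO and 10.93, 10.90, 11.03 and 11.02 in the double knockout, a difference of -0.48 (SE 0.11, limma adjusted p = 0.618). Itih1 had a smaller gap of -0.16, the difference for Itih2 was -0.07, and for Itih5 it was 0.38 with overlapping arrays (0.17 without Mdr2-KO replicate 2 and 0.60 without replicate 3). Of the 6 genes of the family list, 5 were lower, with a median of -0.19.

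The fibrinogen genes encode the chains of the clotting protein. Fgb read 12.34, 12.29, 12.40 and 12.35 in Mdr2-KO and 12.07, 12.06, 12.19 and 12.03 in the double knockout. Fgg read 12.43, 12.34, 12.55 and 12.44, and 12.21, 12.27, 12.18 and 12.14. In both the groups were apart by a step of about the size seen between wild type and Mdr2-KO: the double knockout was lower by 0.26 (Fgb) and 0.24 (Fgg) on the log2 scale, and Mdr2-KO was lower than wild type by 0.30 and 0.32. Fga read 9.37, 9.28, 10.24 and 9.46 in Mdr2-KO and 9.11, 9.10, 9.09 and 9.11 in the double knockout, where its SD was 0.0058. The Mdr2-KO range of Fga rested on replicate 3. Of 18 fibrinogen and coagulation genes 16 were lower, with a median of -0.12, and 4 were lower without overlap, against 0.908% of all genes. F10, the zymogen of factor Xa, differed by -0.20.

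The serum amyloids are apolipoproteins of inflammation, and Apcs encodes serum amyloid P. Saa1 read 8.41, 7.53, 9.46 and 9.40 in Mdr2-KO and 7.50, 7.08, 6.99 and 7.62 in the double knockout, with wild type at 10.58, 9.29 and 11.08. Mdr2-KO replicate 2 fell within the double knockout range, so the groups overlapped although the mean difference was -1.40 (SE 0.42, limma adjusted p = 0.817). Saa2 differed by -1.08, Apcs by -0.90, Saa4 by -0.52 and Saa3 by -0.46, all with overlap. All 6 genes of the list were lower, with a median of -0.71. At an unadjusted p under 0.05, 4 were lower, and 0 were lower without overlap, against 2.04% and 0.908% of all genes. Crp, a pentraxin that is a strong acute-phase protein in humans and a weak one in mice, differed by -0.07.

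Orm2, one of the orosomucoid plasma carriers, read 9.25, 9.24, 10.82 and 10.92 in Mdr2-KO and 8.83, 8.59, 8.73 and 8.92 in the double knockout. The Mdr2-KO arrays fell into a low pair and a high pair, and the difference of -1.29 (SE 0.40, limma adjusted p = 0.879) was 2.45-fold. Orm1 overlapped, with -0.31. Serpina3n, a protease inhibitor of the antichymotrypsin group, read 10.77, 10.52, 10.94 and 10.63 in Mdr2-KO and 10.24, 10.26, 10.20 and 10.28 in the double knockout, a difference of -0.47. Members of the Saa, Orm, Serpina3 and Cyp2c families are close in sequence, and whether their probe sets separate the copies was not tested.

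Among metal-binding genes, Lcn2, whose protein binds bacterial siderophores, read 9.94, 10.24, 11.27 and 10.88 in Mdr2-KO and 9.81, 9.67, 9.70 and 9.61 in the double knockout (difference -0.88, SE 0.26, limma adjusted p = 0.806). Replicates 3 and 4 again made most of the Mdr2-KO excess. Steap4, a metalloreductase, read 11.01, 10.71, 11.09 and 10.71 against 10.40, 10.36, 10.40 and 10.14, a difference of -0.55. The metallothioneins, which bind zinc and copper, differed by -1.09 (Mt1) and -1.34 (Mt2) with overlap. For Mt2 the Mdr2-KO arrays read 8.49, 9.90, 10.96 and 8.54, so here replicates 2 and 3 were the high ones, and the double knockout arrays read 8.78, 8.18, 7.96 and 7.61. The zinc importer Slc39a14 differed by -0.54 with overlap. Haptoglobin (Hp) differed by -0.11 and hemopexin (Hpx) by -0.07.

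Hamp encodes hepcidin, the hormone that closes the iron exporter ferroportin, and is a STAT3 target that also answers to BMP signals. It read 10.38, 10.35, 11.69 and 9.85 in Mdr2-KO and 11.55, 11.63, 11.25 and 11.29 in the double knockout, against 10.30, 6.10 and 9.69 in wild type. Its mean was higher in the double knockout by 0.86 (SE 0.68, limma adjusted p = 0.9995), with a 95% interval of -0.61 to 2.33, and 1 Mdr2-KO array was above all double knockout arrays. Negative acute-phase proteins, whose levels drop in inflammation, were not higher as a group: 8 of 10 were lower, with a median of -0.07. At an unadjusted p under 0.05, 2 were lower and 0 higher, against 2.04% and 2.78% of all genes. Ahsg, at -0.07, was the 1 gene that was lower without overlap, against 0.908% of all genes. Serpina6, corticosteroid-binding globulin, differed by -0.53 and Fetub, a fetuin, by -0.36.

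The genes of the IL-6 pathway itself showed no common direction. Of 37 measured, 18 were higher and 19 lower, with a median of -0.0042. At an unadjusted p under 0.05, 2 were higher and 4 lower, against 2.78% and 2.04% of all genes. Without overlap, 1 was higher and 2 lower, against 1.6% and 0.908%. By list, 12 of 18 feedback and immediate STAT3 targets were lower (median -0.08). Of these 18, 3 were lower and 1 higher at an unadjusted p under 0.05. Higher were 5 of 7 ligands (median 0.05) and 7 of 12 receptors, kinases and STATs (median 0.03). At that p the ligands had 0 in either direction and the receptors, kinases and STATs 1 in each. The ligands were dim, with list means of 4.19 to 4.49 in Mdr2-KO and 4.27 to 4.45 in the double knockout. Stat3, the transcription factor, read 9.18, 8.74, 9.34 and 8.99 in Mdr2-KO and 8.37, 8.53, 8.61 and 8.56 in the double knockout (difference -0.55, SE 0.12, limma adjusted p = 0.628). The double knockout lay below both other groups, and wild type, at 9.67, 9.65 and 9.34, met the Mdr2-KO range at its top. Stat5b, which serves growth hormone signalling, went against it at 0.24 (SE 0.083, limma adjusted p = 0.9995), with no overlap.

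Socs2, feedback inhibitor of growth hormone signalling, read 8.55, 8.50, 7.57 and 7.39 in Mdr2-KO and 7.22, 6.69, 7.36 and 7.25 in the double knockout, a difference of -0.87 with a narrow gap. Its wild-type arrays spanned 6.99 to 8.29 and covered much of both ranges. A second, dimmer Socs2 probe set differed by -0.50. Socs3, the feedback inhibitor of gp130, differed by -0.40 (-0.28 in its dimmer probe set) and the kinase Pim1 by -0.41, both with overlap. Cyclin D1 (Ccnd1) differed by 0.48. The receptor genes differed by -0.31 (Il6ra) and 0.01 (Il6st, gp130), and the sign for Il6st changed in 4 of the alternatives. The Il6ra difference was -0.17 without Mdr2-KO replicate 2 and -0.19 without double knockout replicate 3. Genes of the TNF, IL-1 and NF-kB axis were 8 higher and 8 lower of 16, with a median of 0.0029. Cxcl1, a neutrophil chemokine, stood out in 1 array, Mdr2-KO replicate 3 at 8.88, against 7.06 to 7.22 in the other 3.

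Outside the acute phase, the lowest p belonged to Gbp11, a guanylate-binding protein of the interferon-induced GTPases. It read 8.62, 7.97, 7.33 and 8.16 in Mdr2-KO and 5.75, 5.32, 6.54 and 5.29 in the double knockout, with wild type at 7.63, 6.72 and 6.54. The double knockout was lowest and Mdr2-KO had the higher mean of the other 2 groups; the difference of -2.30 (SE 0.32) was 4.91-fold and just missed the threshold (limma adjusted p = 0.0582). The 18 listed interferon-stimulated genes did not share a fall of this size: 7 were higher and 11 lower, with a median of -0.07. At an unadjusted p under 0.05, 2 were lower and 0 higher, against 2.04% and 2.78% of all genes. The 2 were Mx2 and Ifit1, which overlapped at -0.46 and -0.63. Fam126a, whose protein hyccin belongs to the complex that makes phosphatidylinositol 4-phosphate at the cell surface, read 6.46, 6.65, 6.54 and 6.57 against 6.06, 5.82, 5.96 and 6.11 (difference -0.57, SE 0.086, limma adjusted p = 0.0706). Fam126a lies among the 50 tested genes before Il6 on chromosome 5 in the RefSeq gene order. Of those 50, 6 had an unadjusted p under 0.05 (12%), of the 50 after Il6 it was 5 (10%), and of all other genes 4.79%; 3 on each side (6%) had no overlap, against 2.49%. Whether DNA carried along with the targeted Il6 allele takes part was not tested, as the labels do not give the allele.

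The Cyp2c cytochromes are hepatocyte oxidases of drugs and fatty acids. Of 8 measured, 5 were lower in the double knockout by their point estimate and 3 higher, and 0 were called. At an unadjusted p under 0.05, 4 were lower, against 2.04% of all genes. Cyp2c54 read 8.08, 8.41, 7.66 and 8.04 in Mdr2-KO and 6.57, 6.64, 7.13 and 7.25 in the double knockout, below wild type at 9.47, 9.66 and 9.87 (difference -1.15, SE 0.18, limma adjusted p = 0.0724). Cyp2c50 read 9.09, 8.98, 9.04 and 9.23 in Mdr2-KO and 8.07, 8.17, 8.10 and 8.90 in the double knockout, the last array standing near the Mdr2-KO range. The groups did not overlap in either gene. Cyp2c29 and Cyp2c37 differed by -0.83 and -0.68 with overlap. Of 22 xenobiotic cytochromes 15 were lower, with a median of -0.08, and 2 were lower without overlap, against 0.908% of all genes. No other list member had an unadjusted p under 0.05. Among hepatocyte transcription factors the bile acid receptor Nr1h4 differed by -0.29 with no overlap and Hnf4a by -0.24.

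Slc3a1, a subunit of the cystine transporter, read 8.57, 8.60, 9.11 and 9.16 in Mdr2-KO and 7.88, 7.73, 8.29 and 8.10 in the double knockout (difference -0.86, SE 0.15, limma adjusted p = 0.168). Slc41a2, a magnesium transporter, differed by -0.91, the retinol dehydrogenase family member Rdh16f2 by -0.94 and the galactosyltransferase B3galt1 by -0.76. The lipid flippases Atp10d and Atp11a differed by -0.84 and -0.50. Atp10d was the exception in its order of groups: it read 6.30, 7.05, 6.80 and 6.59 in Mdr2-KO and 5.79, 5.95, 5.75 and 5.90 in the double knockout, close to wild type at 5.93, 5.85 and 5.37. Mdr2-KO was above wild type by 0.97 (adjusted p = 0.0103, limma) and the double knockout by 0.13 (adjusted p = 0.806, limma). C4b, a complement component, differed by -0.39 with no overlap, while the 20 complement genes had a median of -0.07.

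Of the genes with higher levels in the double knockout, 0 passed the threshold in limma, beside 555 at an unadjusted p under 0.05. Hsd17b13, a protein of hepatocyte lipid droplets, read 11.36, 10.02, 11.46 and 10.49 in Mdr2-KO and 12.03, 11.87, 11.93 and 11.88 in the double knockout, with wild type at 11.41, 11.39 and 11.25. The Mdr2-KO arrays were split, with 2 near wild type and 2 below, and the difference was 1.09 (SE 0.24, limma adjusted p = 0.618). Map3k13, a kinase upstream of JNK, read 6.80, 6.65, 6.79 and 7.07 in Mdr2-KO and 7.41, 7.16, 7.42 and 7.41 in the double knockout. Both were above wild type, at 5.71, 5.91 and 5.89, and the difference between the knockout groups was 0.52 (SE 0.10, limma adjusted p = 0.302).

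Col12a1, a fibril-associated collagen, read 4.91, 4.85, 4.92 and 4.88 in Mdr2-KO and 5.19, 5.39, 5.22 and 5.30 in the double knockout, above wild type at 4.33, 4.49 and 4.46 (difference between knockout groups 0.38, SE 0.076, limma adjusted p = 0.311). All 3 groups were apart. Pdk4, a kinase that shuts off pyruvate dehydrogenase in fasting, read 5.42, 6.34, 6.21 and 6.36 against 6.51, 6.72, 7.03 and 7.08. Mogat1, an enzyme of triglyceride synthesis, differed by 0.73, Cpeb2, a regulator of mRNA translation, by 0.69, and Ccn1, a matricellular protein, by 0.56, each with no overlap. Lipa, lysosomal acid lipase, differed by 0.35, the inhibitory SMAD gene Smad7 by 0.37 and S100a10, partner of annexin A2, by 0.50. Olfr172, an olfactory receptor gene, had the lowest p of the genes that were higher (0.84, limma adjusted p = 0.168), at dim levels of 2.63 to 4.00. Ly6d had the largest difference in this direction, 1.51 (SE 0.40, limma adjusted p = 0.657), with overlap through Mdr2-KO replicate 3 at 9.12.

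**Figure D3:**
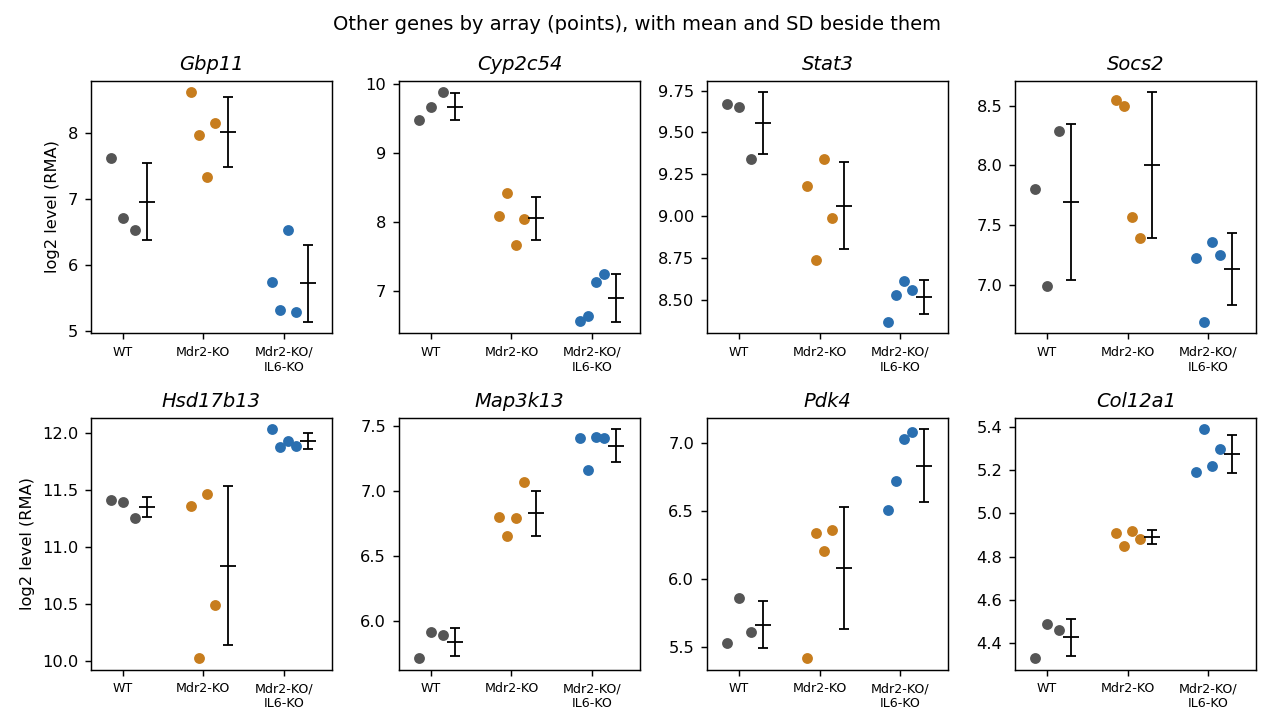
The RMA log2 levels of 8 genes outside the acute-phase lists are plotted for each array as points in the 3 groups, with mean and SD (n = 3, 4 and 4) beside them. None of the 8 overlaps between the knockout groups; the upper row is lower in the double knockout and the lower row higher, and none passed the adjusted threshold.

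Markers of other cells were read beside these results. Over all 19938 genes, 10745 were higher in the double knockout by their point estimate and 9193 lower. Of 21 endothelial markers 21 were higher in the double knockout, with a median of 0.11 and a mean level between 6.90 and 7.07 in Mdr2-KO and between 7.04 and 7.15 in the double knockout. Of 19 T and NK cell markers 15 were lower, with a median of -0.11, and of 14 neutrophil markers 12 were lower, with a median of -0.06. The neutrophil list mean ran from 4.43 to 4.62 in Mdr2-KO and from 4.32 to 4.47 in the double knockout, and its marker Ly6g was dim on every array, at 3.45 to 3.81. S100a9 differed by -0.47 and the NK receptor Ncr1 by -0.40. For bile duct cells the median was 0.04, for stellate cells and myofibroblasts 0.06 and for Kupffer cells 0.04; Krt19, Epcam and Pdgfrb differed by -0.08, 0.07 and 0.12, with a sign that changed in 2 of the alternatives for each. The Kupffer cell markers did not share a direction: Clec4f differed by 0.19, and Timd4, Cd163 and Marco by -0.47, -0.56 and -0.67, all with overlap. Collagen and matrix genes were higher in 26 of 31, with a median of 0.11. None of these markers was called, and their part in the lower acute-phase levels was not tested. Of 37 lists, 2 had array means that did not overlap between the knockout groups, both lower: the fibrinogen and coagulation list (10.61 to 10.84 against 10.49 to 10.56) and the xenobiotic cytochromes (9.05 to 9.23 against 8.78 to 9.04). Each separation was lost when 1 gene was left out: without Fgl1 the fibrinogen and coagulation means overlapped (10.62 to 10.83 against 10.59 to 10.65), and so did the cytochrome means without Cyp2c54 (9.10 to 9.27 against 8.88 to 9.12), both chosen after the values were seen.

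**Figure D4:**
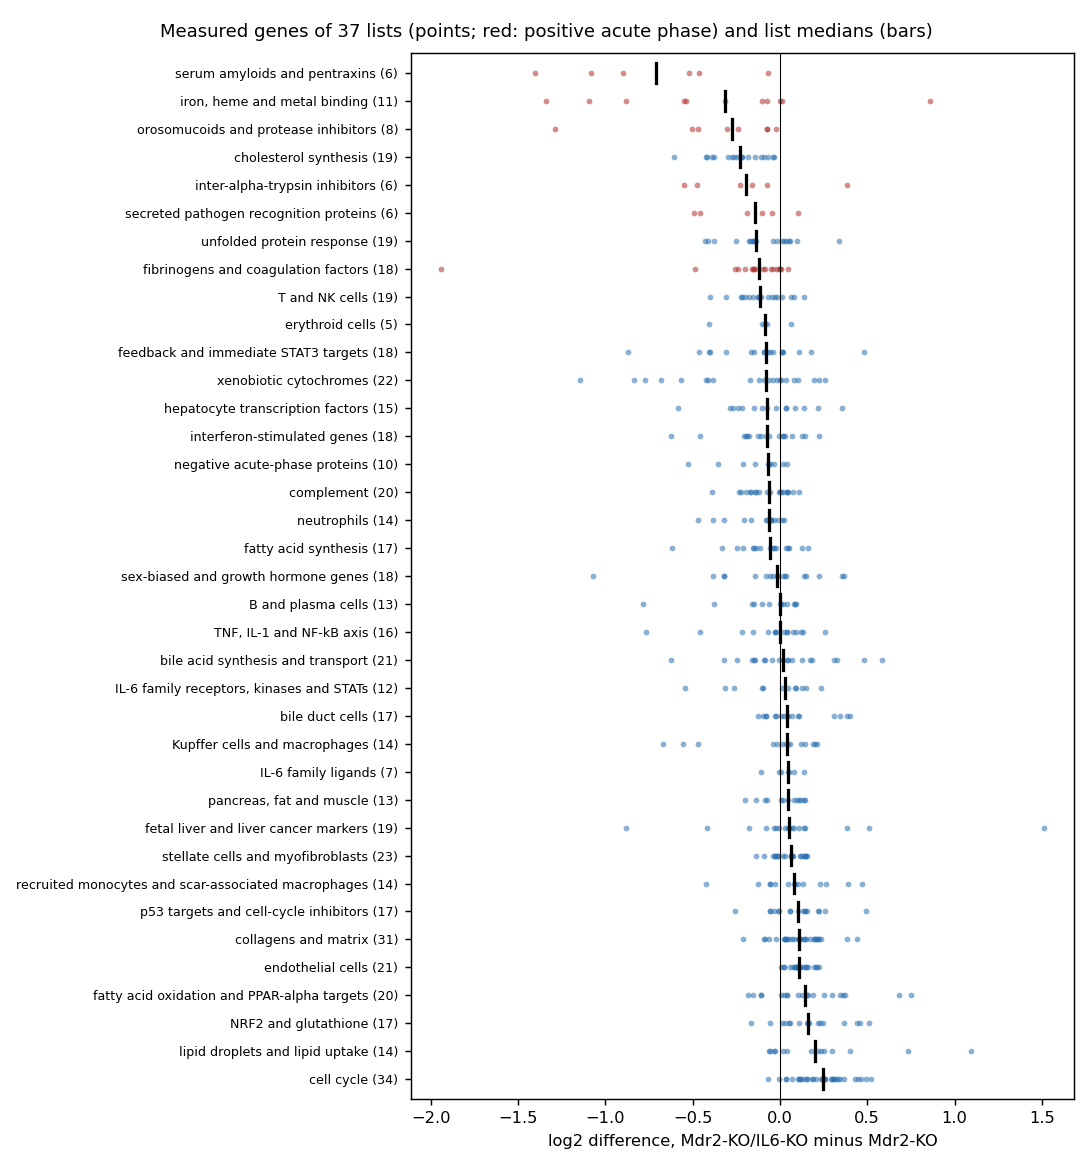
Each point is 1 measured gene of a list, placed by its log2 difference between the double knockout and Mdr2-KO, and the bar is the list median, from -0.71 (serum amyloids and pentraxins) to 0.25 (cell cycle). Numbers in parentheses are genes measured, and the 6 positive acute-phase lists are in red.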

How the data were processed

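Per the labels' protocols, total RNA from snap-frozen liver was made into biotinylated cRNA for Affymetrix arrays. The authors deposited log2 levels of 35557 probe sets on 11 arrays, with RMA and Partek named in the submitters' processing notes; versions and settings are not given in the sources used here. Array medians lay between 5.09 and 5.23, and no further normalization was applied. RMA equalizes distributions between arrays, so a shift shared by most genes cannot be seen. Probe sets with 1 symbol numbered 21789; 1621 had several and 12147 none, and these were left out of the gene tests. Where a gene had several (999 genes), the one with the highest mean over the 11 arrays was used, leaving 19938 genes, 19856 of them in the RefSeq table (GRCm38.p6, used for names, gene order and promoters).

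Limma 3.58.1 in R 4.3.3 fitted a mean per group over all 11 arrays, with 8 residual degrees of freedom, eBayes and Benjamini-Hochberg adjustment, two-sided. The script was tested on simulated data. Errors are SEs of the fit. No batch or pairing is labelled, and replicate numbers are names only. The number of arrays limits the precision. The genes compared, the 37 lists (592 of 660 entries measured) and the tests were chosen with earlier results of these data known. Named genes were Abcb4 and Il6, the 15 lowest p and 10 largest non-overlapping differences in each direction without predicted loci, acute-phase and IL-6 pathway members, up to 4 others per list by p, and the 5 most like Fgl1. Alternatives were other normalizations, probe set rules, variance models, thresholds and omitted arrays.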

Additional observations from a re-analysis of the deposited data

Results flagged for a closer look

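Single arrays stood away from the other 3 of their group in 7 of 220 gene and group pairs examined, where chance alone gives about 1 in 20. Cyp2c50 read 8.90 in double knockout replicate 4, against 8.07 to 8.17. Map3k13 read 7.16 in double knockout replicate 2, against 7.41 to 7.42. Pdk4 read 5.42 in Mdr2-KO replicate 1, against 6.21 to 6.36. Steap4 read 10.14 in double knockout replicate 4, against 10.36 to 10.40. Stat5b read 7.37 in Mdr2-KO replicate 2, against 7.50 to 7.51. Ahsg, a fetuin, read 12.82 in double knockout replicate 2, against 12.87 in the others. Cxcl1 read 8.88 in Mdr2-KO replicate 3, against 7.06 to 7.22.

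One probe set left out of the gene tests because it has no symbol here, 10528476, passed the threshold when all probe sets were tested. Its log2 difference was -1.14 (SE 0.11, limma adjusted p = 0.014 over all probe sets). It read 3.32, 3.70, 3.48 and 3.40 in Mdr2-KO and 2.18, 2.27, 2.47 and 2.43 in the double knockout, with wild type at 3.55, 3.80 and 3.65. Mdr2-KO and wild type overlapped, and the double knockout lay below both.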

How the results depend on the processing

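The count of genes called between the knockout groups, 1 in the report, was 4 over genes brighter than the median gene, 2 with median centring, 4 with cyclic loess, 2 with trend and robust eBayes, 6 with array weights, 2 without both Mdr2-KO arrays 2 and 3, 5 at an adjusted p under 0.10 and 2 over all probe sets. Without moderation limma called 0, beside 564 higher and 378 lower at an unadjusted p under 0.05. Leaving out each array in turn gave 1 to 5. The 5 came without Mdr2-KO replicate 3: Fgl1, Gbp11, Cyp2c54 and, higher, Dqx1 and Pls1; Sema3e was called (-1.45) without Mdr2-KO replicates 2 and 3, and these last 3 genes are named because they were called there. Gbp11 was called in 7 of 22 settings and Itih4 in 4, with adjusted p from 0.013 to 0.683 and from 0.021 to 0.332. The median of the 55 acute-phase genes ran from -0.20 to -0.14. Of 2294 values for 110 genes, 2274 kept their side of the threshold, 19 newly passed it and 1 lost it (Fgl1, unmoderated). The sign changed for 5 genes, none of them called: Il6st, Krt19, Epcam, Pdgfrb and Ly6g. No paired analysis was possible because the replicate numbers were given in sample order and the labels pair nothing.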

Other observations

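Metabolic and growth lists also differed between the knockout groups, with 0 genes called. Over all 19938 genes, 10745 were higher in the double knockout by their point estimate. All 19 measured genes of cholesterol synthesis were lower in the double knockout, with a median of -0.23, against 46.1% of all genes lower. At an unadjusted p under 0.05, 6 were lower and 0 higher, against 2.04% and 2.78% of all genes. Of the 19, 0 were lower without overlap, against 0.908%. Sqle, squalene epoxidase, read 8.42, 8.91, 9.19 and 8.96 in Mdr2-KO and 7.78, 8.18, 8.88 and 8.22 in the double knockout, where replicate 3 stood within the Mdr2-KO range. Idi1, Cyp51 and Lss differed by -0.39, -0.42 and -0.38, each with overlap. Fatty acid oxidation and PPAR-alpha targets were higher in 16 of 20, with a median of 0.14, among them Angptl4 (0.68), and lipid droplet and uptake genes in 10 of 14, with a median of 0.20, among them Cd36 (0.40). Of 17 NRF2 and glutathione genes 15 were higher, with a median of 0.16; the aldehyde oxidase Aox1 read 9.20, 9.12, 9.11 and 9.23 against 9.33, 9.36, 9.52 and 9.45, with no overlap.

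Of 34 cell cycle genes 32 were higher, against 10745 of all 19938 genes, with a median of 0.25. At an unadjusted p under 0.05, 8 were higher and 0 lower, against 2.78% and 2.04% of all genes. Of the 34, 0 were higher without overlap, against 1.6%. The medians of the cell cycle and cholesterol lists (0.25 and -0.23) were larger in size than the -0.16 of the acute-phase genes. Mki67, a marker of dividing cells, read 5.35, 5.33, 6.02 and 5.47 in Mdr2-KO and 6.04, 5.77, 6.00 and 6.34 in the double knockout, overlapping through Mdr2-KO replicate 3. In bile acid transport, Abcb1b differed by 0.59 and the bile salt pump Abcb11 by 0.31, and Cyp7a1, the rate-limiting enzyme of bile acid synthesis, by -0.62, all with overlap.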
